A study of Mus musculus with 12 samples.

Results

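The genes described here are 8 parts of the Tal1, Lmo2 and Gata blood complex: Tal1, Lyl1, Lmo2, Gata1, Gata2, Ldb1, Tcf3 and Cbfa2t3. They are 8 of the 18193 genes that an oligonucleotide array measured in embryos of embryonic day 8.0 (E8.0), and 14 of its 45037 probe sets report them, those whose only gene symbol in the platform annotation is a member of the complex. The rule uses gene symbols and no measured value. The 12 arrays fall into 4 groups of 3. They were mutant EYFP-positive, mutant EYFP-negative, wild-type EYFP-positive and wild-type EYFP-negative cells, where mutant and wild type refer to ER71, the ETS transcription factor now called Etv2. All embryos came from a line named ER71 EYFP on a C57BL/6 and FVB mixed background; the labels name neither the sequence that drives the yellow fluorescent protein EYFP nor the change in the mutant allele. Cells of both genotypes were released with trypsin and sorted on a flow cytometer, and their RNA was amplified in 2 rounds. The labels do not say whether the 3 arrays of a group came from separate embryos or pools, so p-values reflect only how far these samples scatter, and that scatter may be technical.

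In blood precursors, Tal1 or the related Lyl1 pairs with an E protein such as Tcf3, and the pair binds short DNA words called E-boxes. Lmo2 and Ldb1 carry no DNA-binding domain of this kind and bridge that pair to Gata1 or Gata2, which recognise GATA words. Cbfa2t3, also known as Eto2, is a corepressor recruited to the complex. In mouse embryos, Tal1 and Lmo2 are needed for the first blood cells and Gata1 for the maturation of red cells. Etv2 is required for the blood and endothelial lineages and belongs to a family that binds GGAA words.

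RefSeq promoters of the mouse assembly GRCm38.p6 were at hand for 7 of the 8 genes, 12 promoters in all, each taken here as the 250 bases before a transcription start; Lmo2 was not matched. The 4 shown are those of members that moved together, plus Tcf3, a member whose difference did not pass the test, because they hold either a long ETS word, CCGGAA, or a GATA word, AGATAA. The third promoter of Ldb1, another member whose difference did not pass, also holds AGATAA, at 2 places, and is not shown. Both words were searched on both strands, so that a match may be printed as its reverse complement. The long ETS word contains the shorter core GGAA. Capitals mark CCGGAA in Lyl1 (chr8:84701207-84701456, plus strand), in the first Cbfa2t3 promoter (chr8:122699110-122699359, minus strand) and in Tcf3 (chr10:80433636-80433885, minus strand), and AGATAA in the first Tal1 promoter (chr4:115056176-115056425, plus strand). Each is written 5′ to 3′ on the gene's strand.
Tal1 promoter 1: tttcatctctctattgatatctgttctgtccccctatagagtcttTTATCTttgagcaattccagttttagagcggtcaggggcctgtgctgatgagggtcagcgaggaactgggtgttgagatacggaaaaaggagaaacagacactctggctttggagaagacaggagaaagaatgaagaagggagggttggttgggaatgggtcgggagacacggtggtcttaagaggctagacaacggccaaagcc
Lyl1: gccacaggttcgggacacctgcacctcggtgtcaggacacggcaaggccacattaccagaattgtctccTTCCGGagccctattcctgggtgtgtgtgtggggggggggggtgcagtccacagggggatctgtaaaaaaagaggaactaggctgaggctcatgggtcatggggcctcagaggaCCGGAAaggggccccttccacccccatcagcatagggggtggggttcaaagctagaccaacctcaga
Cbfa2t3 promoter 1: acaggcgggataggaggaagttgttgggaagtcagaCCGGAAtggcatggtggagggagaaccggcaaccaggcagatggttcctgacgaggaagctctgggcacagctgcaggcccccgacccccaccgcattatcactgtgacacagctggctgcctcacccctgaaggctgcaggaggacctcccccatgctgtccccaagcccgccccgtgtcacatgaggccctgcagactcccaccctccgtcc
Tcf3: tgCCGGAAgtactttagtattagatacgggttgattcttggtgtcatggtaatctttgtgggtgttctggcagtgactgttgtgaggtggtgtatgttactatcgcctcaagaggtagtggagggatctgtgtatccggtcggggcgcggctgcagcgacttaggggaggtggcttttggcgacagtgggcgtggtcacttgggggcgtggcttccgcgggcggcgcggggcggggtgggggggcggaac

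The Lyl1 promoter held CCGGAA at 2 places, starting 181 and 67 bases before the start. The first Cbfa2t3 promoter held it once, 214 bases before the start, and the Tcf3 promoter once, 248 bases before it. Of all 32851 promoters of this length, 12% held CCGGAA and 93.4% held GGAA, and each of the 12 promoters of the complex held GGAA. The GATA word was in the first Tal1 promoter, 205 bases before the start, and at 2 places in the third Ldb1 promoter, against 9.99% of all promoters. Neither CCGGAA nor AGATAA was in these windows of Gata1, Gata2 or the second Tal1 promoter. The E-box CANNTG, of which CAGATG is 1 form, was in the promoters of Lyl1, Gata1, Tcf3, Cbfa2t3 and the third of Ldb1, and in 66.2% of all promoters. CAGATG, the form preferred by Tal1 with an E protein, was in the first Cbfa2t3 promoter alone of the 12 and in 14.4% of all promoters. A match is a description of letters and was not tested as a binding site.

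All values below are on a log2 scale, as the authors summarised them by robust multi-array averaging (RMA); a difference of 1 on this scale is a doubling. A level on one probe set cannot be set against the level on another, so levels are compared between groups within a probe set. Array medians lay between 6.98 and 7.06. For actin, an array control, the 3′ probe set exceeded the 5′ one by 1.40 to 1.62 on mutant positive and 1.87 to 2.72 on mutant negative arrays. The gap was 1.54 to 3.05 on wild-type positive and 1.57 to 3.14 on wild-type negative arrays, and its part in the differences below was not tested. Etv2 itself (1421773_at) read 7.26 to 7.40 on mutant positive arrays and 7.24 to 7.49 on mutant negative arrays, against 10.70 to 11.36 on wild-type positive and 7.50 to 7.85 on wild-type negative arrays. The large step between genotypes was thus among positive cells; the labels do not say whether the mutation touches the sequence this probe set reads. Both wild-type arrays numbered 1 had the Y-linked Eif2s3y high, at 10.8 in positive and 11.2 in negative cells, against 4.11 to 4.53 on the other 10 arrays; values without this pair of arrays are given where they matter. Differences were tested with limma over all 45037 probe sets, and a probe set was called past the test at a Benjamini-Hochberg adjusted p under 0.05.

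The core factors Tal1, Lyl1 and Lmo2 were high in wild-type positive cells and much nearer to their negative-cell levels in mutant positive cells. Tal1, the basic helix-loop-helix factor that gives the complex its name, had one probe set (1449389_at). It read 7.52, 7.55 and 7.39 for mutant positive, 6.88, 6.86 and 6.75 for mutant negative, 12.11, 11.82 and 12.61 for wild-type positive, and 6.89, 6.92 and 7.27 for wild-type negative cells. The wild-type positive arrays stood alone, far above the other 9. Lyl1 (1419120_at), the closest relative of Tal1 in blood cells, read 6.61, 6.30 and 6.16 in mutant positive, 6.40, 6.32 and 5.95 in mutant negative, 9.42, 9.38 and 10.00 in wild-type positive, and 6.50, 5.98 and 6.18 in wild-type negative cells. Its mutant positive and mutant negative levels overlapped. Lmo2 (1454086_a_at), the LIM-only bridging protein, read 9.83, 10.44 and 9.27 in mutant positive, 8.99, 9.35 and 8.90 in mutant negative, 12.33, 12.15 and 11.95 in wild-type positive, and 9.25, 9.07 and 9.47 in wild-type negative cells. Its mutant positive arrays spread the most, and only the lowest of them fell within the range of the negative cells.

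Both GATA factors were highest in wild-type positive cells, by smaller steps than Tal1 and Lyl1. Gata1 (1449232_at), the red-cell GATA factor, read 5.54, 5.48 and 5.45 in mutant positive, 5.74, 5.48 and 5.69 in mutant negative, 6.64, 6.93 and 7.69 in wild-type positive, and 5.63, 5.30 and 5.53 in wild-type negative cells. Outside wild-type positive cells these levels lay near the 25th percentile of all values, 5.65, where a probe set may report background, which leaves the size of its step uncertain. Gata2, the GATA factor of early progenitors, had 2 probe sets. The brighter (1450333_a_at) read 9.96, 10.03 and 10.11 in mutant positive, 9.84, 9.88 and 9.26 in mutant negative, 10.52, 10.76 and 11.07 in wild-type positive, and 9.87, 9.90 and 9.74 in wild-type negative cells. The other (1428816_a_at) read 7.24, 7.33 and 7.43 in mutant positive, 6.88, 7.16 and 6.76 in mutant negative, 8.01, 8.23 and 8.44 in wild-type positive, and 7.03, 7.18 and 7.03 in wild-type negative cells. On both probe sets the mutant positive arrays lay between the wild-type positive arrays and all negative arrays, with no overlap.

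The widely expressed partners showed no such step. Ldb1 (1452024_a_at), which binds Lmo2 and pairs with itself, read 8.52, 9.32 and 8.29 in mutant positive, 8.48, 8.06 and 7.62 in mutant negative, 8.65, 8.26 and 8.59 in wild-type positive, and 8.25, 8.03 and 8.72 in wild-type negative cells. All 4 groups overlapped. Tcf3, the E protein, had 3 probe sets. The brightest (1426297_at) read 11.29, 11.77 and 10.92 in mutant positive, 11.11, 11.43 and 10.86 in mutant negative, 11.23, 10.86 and 11.17 in wild-type positive, and 11.29, 11.65 and 11.67 in wild-type negative cells. The wild-type positive arrays lay just below the wild-type negative ones, while both mutant groups overlapped. The others, 1427764_a_at at 6.26 to 7.77 and 1452542_x_at at 5.97 to 7.39 over the 12 arrays, had the same order in wild types.

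The 4 probe sets of Cbfa2t3 differed among themselves. On 1438705_at, the brightest, the levels were 9.47, 9.42 and 8.98 in mutant positive, 8.36, 8.34 and 8.11 in mutant negative, 10.76, 10.98 and 9.95 in wild-type positive, and 8.34, 8.38 and 8.99 in wild-type negative cells. Mutant positive cells lay below all wild-type positive arrays and above all mutant negative arrays. On 1418582_at they were 7.21, 7.81 and 7.41 in mutant positive, 7.15, 6.85 and 6.92 in mutant negative, 8.32, 7.73 and 7.54 in wild-type positive, and 6.80, 7.14 and 6.90 in wild-type negative cells, and here the positive cells of both genotypes overlapped. On 1440964_s_at all 12 arrays lay within 0.29, and 1440963_at ran from 6.64 to 7.34. The files do not say which transcripts these probe sets report.

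**Figure D1:**
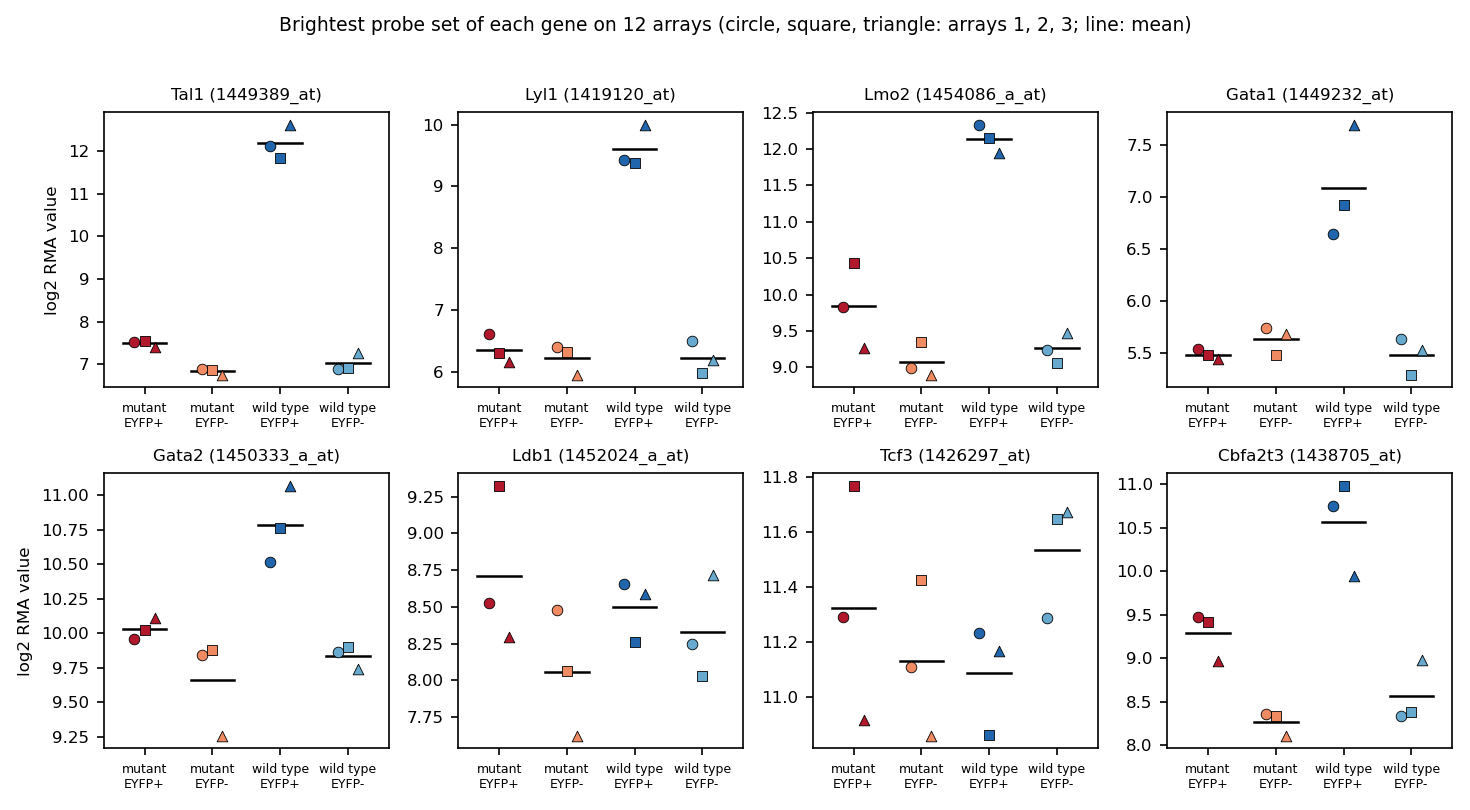
Level (log2 RMA value, y axis, own scale in each panel) of the brightest probe set of each gene on the 12 arrays, by group; symbols mark array numbers 1 to 3 and lines the mean of 3 arrays. Tal1, Lyl1 and Gata1 stand high in wild-type EYFP-positive cells alone, though the mutant positive arrays of Tal1 lie slightly above all its negative arrays. Lmo2, Gata2 and Cbfa2t3 have the mutant positive mean in between, and Ldb1 and Tcf3 have no such step.

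**Figure D2:**
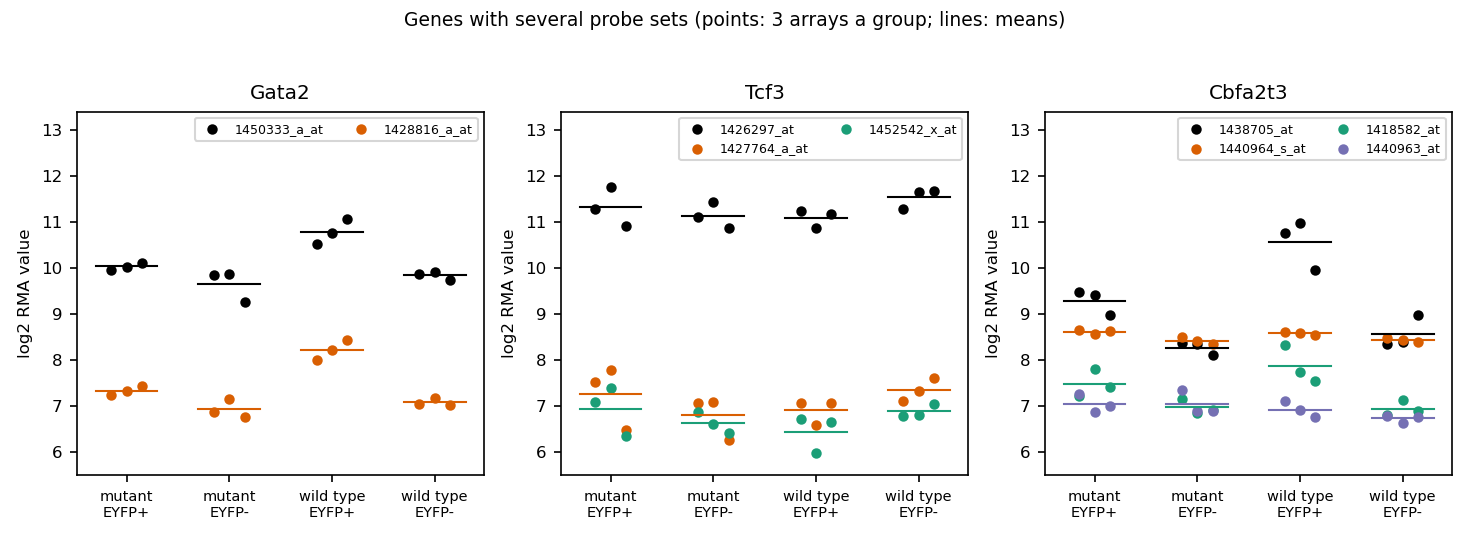
Levels (log2 RMA value, y axis) of every probe set of Gata2, Tcf3 and Cbfa2t3 on the 3 arrays of each group, with group means as lines. Both Gata2 probe sets have the same group order. The 3 of Tcf3 have the wild-type positive arrays below the wild-type negative ones, by differences that did not pass the test. Of the 4 of Cbfa2t3 only 1438705_at and 1418582_at separate the wild-type groups past the test, with the EYFP-positive one above.

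In wild-type embryos, 8 of the 14 probe sets, from 6 of the 8 genes, were higher in positive than in negative cells, and 0 were lower; over all probe sets 2.76% were higher and 1.72% lower. On these 8 and on Cbfa2t3 1440964_s_at the positive arrays all lay above the negative ones, as on 10.2% of all probe sets. Tal1 differed by 5.15 ± 0.18 on the log2 scale (SE, n = 3 each), 35.6-fold (limma adjusted p = 3.75e-08). Lyl1 was 10.4-fold higher (3.38 ± 0.20, limma adjusted p = 3.4e-06) and Lmo2 7.37-fold higher (2.88 ± 0.25, limma adjusted p = 5.8e-05). Gata1 differed by 1.60 ± 0.22, which is 3.03-fold (limma adjusted p = 0.0014). The brightest Cbfa2t3 probe set was 3.97-fold higher (1.99 ± 0.26, limma adjusted p = 0.00113). Gata2 rose by 0.95 and 1.14 on its 2 probe sets (limma adjusted p = 0.00994 and 0.000467). In bulk samples such as these, fewer cells that express a gene and less RNA of it per cell cannot be told apart.

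Cbfa2t3 probe set 1418582_at was also higher, by 0.92 ± 0.21 (limma adjusted p = 0.0311), but fell short of the threshold under 8 of 20 other settings, with adjusted p up to 0.232 when both wild-type arrays numbered 1 were left out; wild-type positive array 1 or 2, or any wild-type negative array, left out alone also ended it (0.053 to 0.121). The 6 probe sets not past the test were those of Ldb1, Tcf3 and the remaining pair of Cbfa2t3. Ldb1 differed by 0.17 with a 95% interval from -0.47 to 0.81, so a 2-fold change in either direction lay outside it. The Tcf3 probe sets differed by -0.45, -0.44 and -0.44 (limma adjusted p = 0.383, 0.64 and 0.519). Their positive arrays all lay below their negative arrays, as was so for 11% of all probe sets. Cbfa2t3 probe sets 1440964_s_at and 1440963_at differed by 0.14 and 0.19 (limma adjusted p = 0.477 and 0.665).

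Among positive cells, 7 of the 14 probe sets, from the same 6 genes, were lower in mutants than in wild types, against 2.34% of all probe sets, and 0 were higher, against 2.08%. This comparison shares the wild-type positive arrays with the one before. Tal1 fell by 4.69 on the log2 scale (SE 0.18), a level 25.8-fold lower (limma adjusted p = 1.03e-07). Lyl1 was 9.47-fold lower (-3.24 ± 0.20, limma adjusted p = 4.94e-06), Lmo2 4.91-fold lower (-2.30 ± 0.25, limma adjusted p = 0.00038) and Gata1 3.02-fold lower (-1.60 ± 0.22, limma adjusted p = 0.00177). The arrays of the 2 groups did not overlap on any of the 7, as was so in this direction for 11.2% of all probe sets.

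The smaller differences were less firm. Gata2 fell by 0.89 on 1428816_a_at (SE 0.13, limma adjusted p = 0.00332) and by 0.75 on 1450333_a_at (SE 0.17, limma adjusted p = 0.0364). The second of these was lost under 9 of 21 other settings, with adjusted p up to 0.113, which came from leaving out mutant positive array 1; any mutant positive or wild-type negative array, or wild-type positive array 2 or 3, ended the call when left out. The Cbfa2t3 probe set 1438705_at fell by 1.27 (SE 0.26, limma adjusted p = 0.0196), was lost under 6 of 21 settings and had an adjusted p of 0.092 without both wild-type arrays numbered 1. The mean of the gene's probe sets differed by -0.38 (0.0982), and with only the positive arrays the adjusted p was 0.0965. Leaving out mutant positive array 3 gave 0.0697, wild-type positive array 1 gave 0.0672 and wild-type positive array 2 gave 0.0615. Ldb1 differed by 0.21 (95% interval -0.43 to 0.85), the 3 Tcf3 probe sets by 0.24, 0.35 and 0.50, and Cbfa2t3 1418582_at by -0.39, with limma adjusted p of 0.767, then 0.639, 0.65 and 0.371, then 0.378.

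Within mutants, 0 of the 14 probe sets passed limma's test between positive and negative cells, against 2.62% of all probe sets. That fit of group means does not use the replicate numbers. With the replicate number as a fixed block 1 of the 14 passed, against 1848 of all 45037, and with a random block 2 passed, against 1993. In the fit of group means 7 of the 14 had an unadjusted p under 0.05, against 5159 of all 45037, and 12 lay above 0. On 6 probe sets the positive arrays all lay above the negative ones, as was so for 6.88% of all probe sets: Tal1, both of Gata2 and 3 of Cbfa2t3. Tal1 was higher by 0.64, 0.68 and 0.64 in the pairs of arrays numbered 1, 2 and 3, a mean difference of 0.65 ± 0.18 (limma adjusted p = 0.0954). With the replicate number as a block, which the mutant arrays bear out as a pairing, its adjusted p was 0.0179. Tal1 also passed with a random block (0.0248), with only the mutant arrays (0.0381) and with the mean of a gene's probe sets (0.0447). Leaving out wild-type positive array 2 (0.048) or 3 (0.0244) also gave a call, whereas under 16 of 22 settings Tal1 did not pass. Cbfa2t3 1438705_at was higher by 1.02 ± 0.26 (limma adjusted p = 0.0783, and 0.112 with the block). It passed with the block as a random term (0.0427), with the brightest probe set per gene (0.0433), with only the mutant arrays (0.0473) and without wild-type positive array 3 (0.0238). Lmo2 differed by 0.77 ± 0.25 (limma adjusted p = 0.2, and 0.0363 without mutant positive array 3). Lyl1 differed by 0.13 and Gata1 by -0.15, and Ldb1 by 0.05, 1.26 and 0.67 in the 3 pairs, a spread as wide as the difference.

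Between mutant and wild-type negative cells, limma called 0 of the 14 probe sets and 0 of all 45037, a share of 0%. The differences of the members ran from -0.54 to 0.31, with limma adjusted p between 0.976 and 0.999. At an unadjusted p under 0.05 there were 0 members and 2119 probe sets in all.

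**Figure D3:**
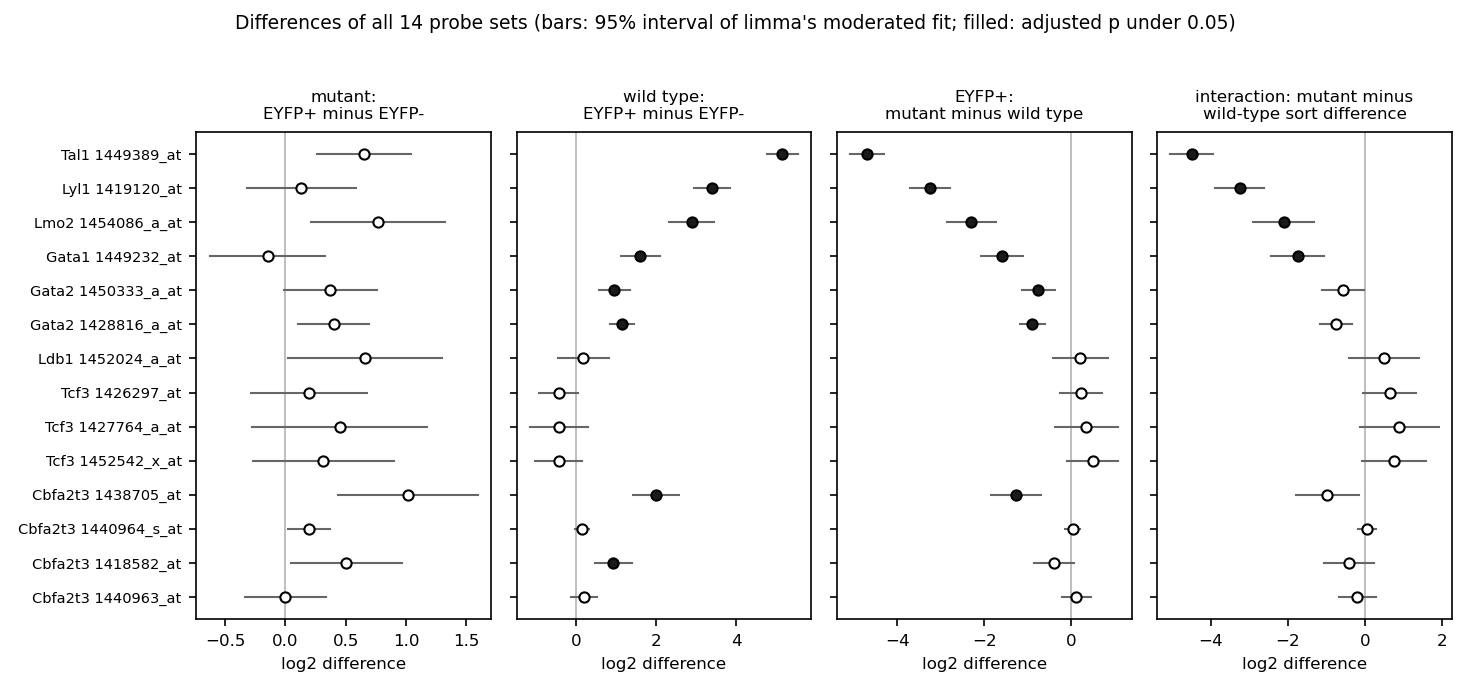
Log2 differences (x axis) of all 14 probe sets in 4 comparisons, with 95% intervals; filled points passed the limma test. The mutant sort panel, on a narrower scale, has no filled point and reaches 1.02 for Cbfa2t3 1438705_at, whereas the wild-type sort panel reaches 5.15 for Tal1.

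The interaction asks whether the difference between positive and negative cells was itself smaller in mutants. It was past the limma test for 4 of the 14 probe sets, all below 0, against 0.893% of all probe sets in that direction. The mutant sort difference less the wild-type one was -4.50 ± 0.25 for Tal1 (limma adjusted p = 5.23e-06) and -3.25 ± 0.29 for Lyl1 (limma adjusted p = 0.000171). It was -2.11 ± 0.36 for Lmo2 (limma adjusted p = 0.0146) and -1.75 ± 0.31 for Gata1 (limma adjusted p = 0.0182). Lmo2 lost the call without both wild-type arrays numbered 1 (adjusted p = 0.0952). Without wild-type negative array 2 the count was 2, because Lmo2 reached 0.0514 and Gata1 0.0625. Gata1 also lost it without mutant positive array 2 (0.05), mutant negative array 3 (0.0538) or wild-type negative array 3 (0.0526).

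For Gata2 the interaction was -0.74 on 1428816_a_at and -0.57 on 1450333_a_at, and for Cbfa2t3 1438705_at it was -0.97, with limma adjusted p of 0.117, 0.478 and 0.38. With the replicate number as a random block, the adjusted p of Gata2 1428816_a_at was 0.0482, and under no other setting run did the interaction of these 3 probe sets pass. The Tcf3 probe sets had interactions of 0.64, 0.89 and 0.76 (limma adjusted p = 0.559, 0.607 and 0.58). On all 3, the mutant positive array was above the mutant negative array of its number in 3, 3 and 2 of 3 pairs, and the wild-type positive arrays lay below all wild-type negative arrays.

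Mean levels of erythroid and endothelial markers and, by a smaller step, of megakaryocyte markers were highest in wild-type positive cells. Those of the other cell types listed were not. The mean log2 level of 7 measured primitive erythroid markers was 6.03 to 6.12 on mutant positive, 6.06 to 7.85 on mutant negative, 10.7 to 11.4 on wild-type positive and 6.25 to 8.36 on wild-type negative arrays. That of 6 endothelial markers was 7.72 to 7.95 on mutant positive, 6.88 to 7.02 on mutant negative, 10.3 to 10.6 on wild-type positive and 6.80 to 6.83 on wild-type negative arrays. Of these 6 markers, 5 were lower in mutant than in wild-type positive cells, against 2.34% of all probe sets. In mutant positive against mutant negative cells 2 were higher, against 1.55% of all probe sets. Cdh5, the endothelial cadherin, read 4.86 to 5.09 in mutant positive cells, against 10.04 to 10.35 in wild-type positive cells. Kdr, the VEGF receptor, read 11.48 to 12.17 in mutant positive and 9.19 to 9.23 in mutant negative cells, against 12.13 to 12.57 in wild-type positive cells, and was higher by 2.57 ± 0.17 in the mutant sort (limma adjusted p = 0.000141). Tek, the angiopoietin receptor, was higher there by 2.04 ± 0.28 (limma adjusted p = 0.00334). The 4 cardiac markers averaged 10.8 to 11.2 on mutant positive and 8.69 to 9.49 on wild-type positive arrays. The 4 megakaryocyte markers averaged 7.03 to 7.09 on mutant positive and 7.26 to 7.69 on wild-type positive arrays, and the macrophage markers 6.39 to 6.50 and 6.34 to 6.53 on the same groups. The megakaryocyte markers did not move as a group. Itga2b and Pf4 averaged 8.85 and 6.20 in wild-type positive cells, against 7.95 and 5.19 in wild-type negative cells. Gp1bb and Gp9 averaged 7.98 and 7.02, against 8.03 and 7.05. Of the 4, 1 was called higher there, against 2.76% of all probe sets, and 0 lower, against 1.72%. Neural markers averaged 6.11 to 7.96 on mutant positive, 10.58 to 10.64 on mutant negative, 6.86 to 8.14 on wild-type positive and 10.15 to 10.64 on wild-type negative arrays, and epithelial markers 6.33 to 7.98, 9.99 to 10.77, 6.09 to 7.26 and 10.86 to 11.13 in the same order. The part of the sorted cells' makeup in the differences of the complex was not tested.

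Single arrays of negative cells differed in globin signal. The embryonic globin Hbb-y read 11.55 on mutant negative array 2, against 5.01 and 4.71 on the other mutant negative arrays, and 10.8, 5.59 and 11.9 on the 3 wild-type negative arrays. Hbb-bh1 was also high on mutant negative array 2, at 10.51, and Hba-x read 7.39 there, against 6.57 and 6.80 on the other mutant negative arrays. Slc4a1 at 6.61, Klf1 at 6.73 and Alas2 at 5.075 stayed near their levels on those other arrays. On the mutant negative array high in Hbb-y, Tal1 read 6.86 and Gata1 5.48, against 6.88 and 6.75 for Tal1 and 5.74 and 5.69 for Gata1 on the other mutant negative arrays. On the wild-type negative arrays high in Hbb-y, Tal1 read 6.89 and 7.27 and Gata1 5.63 and 5.53, against 6.92 and 5.30 on the wild-type negative array low in it. All of these Tal1 and Gata1 levels stayed below those of wild-type positive cells. What the globin signal on these arrays reflects was not tested. The mean of the yolk sac endoderm markers was 10.3 on mutant positive array 1 and 5.90 and 5.70 on the other mutant positive arrays, against 5.58 to 6.01 on the wild-type positive arrays. Without mutant positive array 1, 6 of the 14 probe sets were lower in mutant than in wild-type positive cells, against 796 of all 45037.

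**Figure D4:**
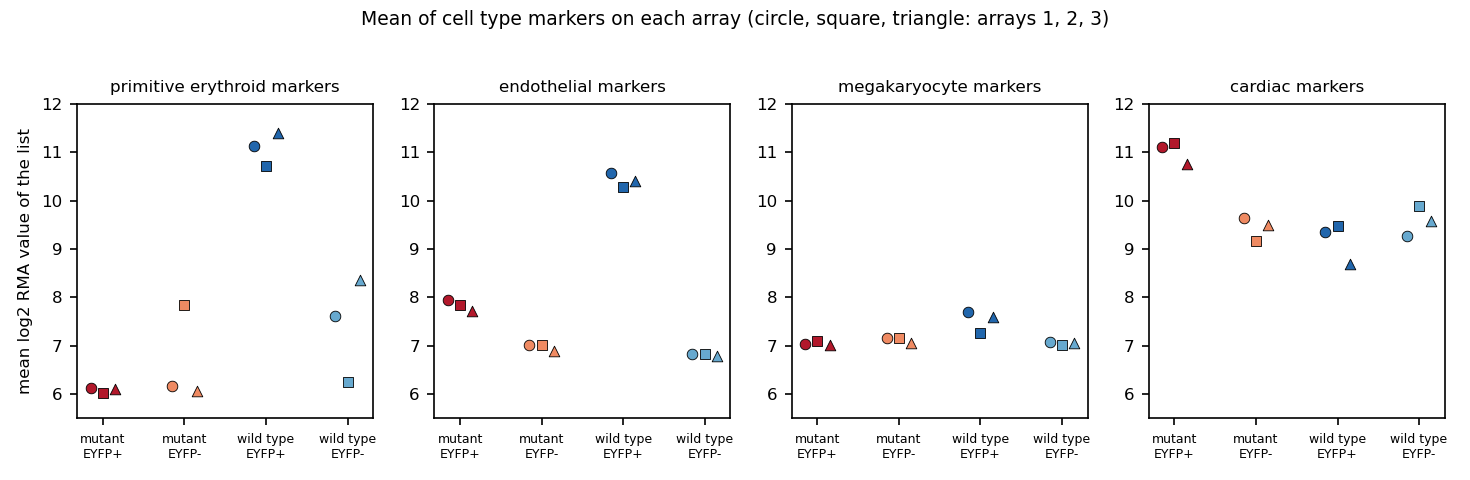
Mean level (log2 RMA value, y axis) of 4 lists of cell type markers on each of the 12 arrays, by group; symbols mark array numbers 1 to 3. Erythroid and endothelial means are highest in wild-type positive cells, cardiac means in mutant positive cells, and megakaryocyte means stay between 7.03 and 7.69.

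Most genes known as targets of the complex were highest in wild-type positive cells. The list includes all 7 measured primitive erythroid markers and the megakaryocyte marker Itga2b, so it is not separate from those markers. Of 12 measured, 9 were higher in wild-type positive than negative cells and 0 lower, with a median difference of 2.76 against -0.01 over all probe sets, of which 2.76% were higher and 1.72% lower. In mutant against wild-type positive cells 9 were lower and 0 higher, with a median of -2.85, against 2.34% and 2.08% of all probe sets. Klf1, a red-cell transcription factor, read 6.62, 6.21 and 6.27 in mutant positive, 6.61, 6.73 and 6.57 in mutant negative, 9.95, 9.63 and 10.12 in wild-type positive, and 6.61, 6.50 and 6.62 in wild-type negative cells. Its interaction was -3.60 ± 0.20 (limma adjusted p = 5.23e-06). Interactions below 0 were also called for Slc4a1, the red-cell anion exchanger, at -5.11, the embryonic globin Hba-x at -5.25, the haem synthesis enzyme Alas2 at -2.12 and the homeobox factor Hhex at -3.98. Alas2 lost the call under 4 of 21 settings and Hba-x under 1. Within mutants 0 of the 12 were called by limma, and 0 had an unadjusted p under 0.05. Epb42, a red-cell membrane protein, differed by 0.00 between wild-type positive and negative cells on its brightest probe set, but its other probe set was higher by 1.66 ± 0.33 there (limma adjusted p = 0.0162) and lower in mutant than in wild-type positive cells (-1.68 ± 0.33, limma adjusted p = 0.0168).

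Partners of the same families split by gene. Of the 6 partner factors of blood progenitors, 2 were higher and 0 lower in positive than negative wild-type cells, against the same 2.76% and 1.72% of all probe sets. The ETS factor Fli1 read 7.53, 7.17 and 7.20 in mutant positive, 7.44, 6.91 and 6.52 in mutant negative, 11.49, 11.57 and 11.85 in wild-type positive, and 6.93, 7.07 and 7.58 in wild-type negative cells, with an interaction of -4.10 ± 0.33 (limma adjusted p = 8.58e-05). The brightest probe set of Erg, another ETS factor, was higher by 0.38 in wild-type positive cells (limma adjusted p = 0.0337, lost under 10 of 22 settings), whereas its probe set 1440244_at was higher by 4.77 (limma adjusted p = 1.48e-07). Runx1, the runt factor of blood, behaved likewise, with 0.25 on its brightest probe set (limma adjusted p = 0.364) and 2.23 on 1422864_at (limma adjusted p = 1.22e-05).

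Of the 7 LIM-only, LIM-binding and SSBP partners, Ldb2, the relative of Ldb1, was the only one called higher in positive than negative wild-type cells (2.76% of all probe sets), and 0 were lower. It read 9.37, 8.92 and 9.36 in mutant positive, 9.01, 9.18 and 9.69 in mutant negative, 11.24, 11.12 and 11.50 in wild-type positive, and 9.15, 9.28 and 8.92 in wild-type negative cells. Its interaction was -2.25 ± 0.27 (limma adjusted p = 0.00162). Lmo4, another LIM-only protein, was higher by 1.06 in mutant than in wild-type positive cells (limma adjusted p = 0.0143), and lost the call under 2 of 21 settings. Of the 6 E proteins and Id inhibitors, 1 was lower in wild-type positive cells (1.72% of all probe sets) and 0 higher: Id2, which binds E proteins and blocks their DNA contact, was lower by 0.78 on the log2 scale in wild-type positive cells (-0.78 ± 0.15, limma adjusted p = 0.0132, lost under 3 of 22 settings).

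Of the 7 related factors and Fog cofactors, 5 were higher and 1 lower in mutant positive than in mutant negative cells, with a median of 1.52 against -0.03 over all probe sets, of which 1.55% were higher and 1.07% lower. Zfpm1, the Fog cofactor of Gata1, was higher in positive cells of both genotypes, by 1.23 ± 0.20 in mutants (limma adjusted p = 0.00789) and by 1.58 ± 0.20 in wild types (limma adjusted p = 0.000806). Its interaction was -0.35 (limma adjusted p = 0.793, 95% interval -0.97 to 0.27). On its dimmer probe set the differences were 0.18 in mutants (limma adjusted p = 0.672) and 0.49 in wild types (limma adjusted p = 0.0345). Gata6, a GATA factor of heart and endoderm, read 11.28, 11.15 and 11.32 in mutant positive, 9.39, 9.43 and 9.29 in mutant negative, 10.14, 9.94 and 10.09 in wild-type positive, and 9.68, 10.03 and 9.99 in wild-type negative cells, with an interaction of 1.72 ± 0.16 (limma adjusted p = 0.000213), against 1.44 and 0.38 on its other probe sets (limma adjusted p = 0.213 and 0.709). Gata4 and Gata5 were called the same way, at 1.70 and 1.47, where 0.38% of all probe sets were called above 0, but lost the interaction call under 9 and 11 of 21 settings. On their other probe sets the interaction was 0.04 for Gata4 and 0.71 for Gata5 (limma adjusted p = 0.978 and 0.0884), and the mean of the Gata4 probe sets gave 0.87. Cardiac markers stood high on the same mutant positive arrays.

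Tal2, a close relative of Tal1, was lower in mutant positive than in mutant negative cells on the brighter of its probe sets. On 1450517_at it read 7.52, 6.82 and 6.09 in mutant positive cells, against 8.63, 8.79 and 8.63 in mutant negative cells, a difference of -1.88 ± 0.31 (limma adjusted p = 0.00948, lost under 1 of 22 settings), while its other probe set differed by -0.09 (limma adjusted p = 0.872). In wild types the difference on 1450517_at was 0.12 (limma adjusted p = 0.93), and its interaction was -2.00 (limma adjusted p = 0.0646). The interaction passed with a fixed or a random replicate block (0.0316 and 0.0194), with the brightest probe set per gene (0.0361) and without mutant positive array 1 (0.0115). Of the 8 corepressors measured, Runx1t1, the relative of Cbfa2t3, alone was called in the mutant sort, where 1.55% of all probe sets were higher: it was higher by 1.71 ± 0.14 in mutant positive than mutant negative cells (limma adjusted p = 0.000323) and had an interaction of 1.79 ± 0.19 (limma adjusted p = 0.000585). Runx1t1 averaged 10.84 in mutant positive, 9.13 in mutant negative, 9.99 in wild-type positive and 10.08 in wild-type negative cells. Its difference between mutant and wild-type negative cells was -0.95 and was not called (limma adjusted p = 0.667). On its other probe sets the interaction ran from 0.16 to 2.16 and passed the test on none, with limma adjusted p from 0.0855 to 0.759.

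**Figure D5:**
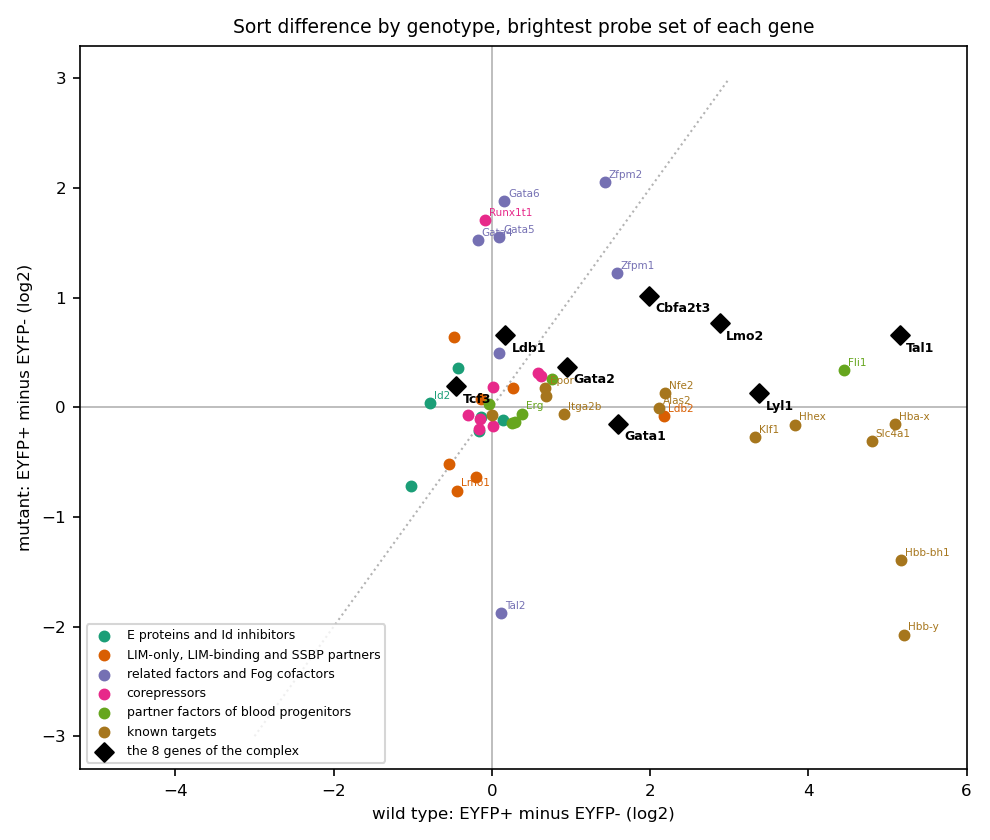
EYFP-positive minus EYFP-negative log2 difference in mutants (y axis) against that in wild types (x axis), brightest probe set of each gene; diamonds mark the complex, colours the 6 lists of related genes, and the dotted line equal differences. Tal1, Lyl1, Lmo2 and Gata1 lie to the right at mutant differences between -0.15 and 0.77, Klf1, Hhex, Slc4a1 and Hba-x lie to the right near the mutant zero line, Hbb-y and Hbb-bh1 lie below it, Zfpm1 lies close to the dotted line, and Gata6 and Runx1t1 lie near zero in wild types and high in mutants.

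Genes most like the members over the 12 arrays, by Pearson's r on the log2 values, were read as a description, since the arrays share groups and the wild-type positive arrays stand apart from the rest. For Tal1 they were Cldn5 (r = 0.996), Erg on 1440244_at (0.996), Ctla2b (0.996) and Calcrl (0.995). For Lyl1 they were Lcp1 (0.993), Flt4 (0.993), Cldn5 (0.993) and Icam2 (0.992). For Lmo2 they were Hapln1 (0.991), Sipa1 (0.988), Plxnd1 (0.984) and Nfib (0.983). For Gata1 they were Tmem255a (0.983), Sost (0.982), Gngt2 (0.981) and Lcp1 (0.976). Within the complex, Tal1 and Lyl1 had r = 0.99, and Tal1 and Lmo2 had r = 0.965, while Tal1 and Ldb1 had r = 0.236 and Tal1 and the brightest Tcf3 probe set r = -0.303.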

How the data were processed

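RNA of 12 samples was measured on 1 array each. The deposited values are log2 expression values that the authors made with RMA, per the submitters' processing notes; its version was not given in the sources used here, nor were its options. The values were used as deposited, without scanner files. Of 45101 probe sets, 64 array controls were left out and 45037 tested; the platform annotation gave 34945 of them 1 gene symbol and 932 several, and did not list 9160.

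Groups came from the sample labels. Each difference came from limma 3.58.1 under R 4.3.3 (lmFit, then contrasts.fit and eBayes, two-sided), with a model of 4 group means with 8 residual degrees of freedom and 5 contrasts. P-values were adjusted by Benjamini-Hochberg over all probe sets within a contrast, with a threshold of 0.05, no minimum fold and no filter on dim probe sets. The fit was tested on simulated data. Only 3 arrays per group limit the precision. Errors are moderated standard errors.

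Named were every probe set of the members and, for 6 lists of pathway genes and 8 lists of markers, each gene by its brightest probe set. The members and lists were chosen with earlier results of these data known. Ncor1 had no probe set with a single symbol, and 1 further listed gene is not reported here. Erg 1440244_at and Runx1 1422864_at were singled out after their values were seen.

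Mutant arrays with the same number deviated together (r = 0.659, 0.414 and 0.52 between positive and negative arrays numbered 1, 2 and 3), so the numbers were taken to pair them; the pairing comes from these correlations and not from the labels. The alternatives were other normalizations, collapse to genes, filters on dim probe sets, only the groups compared, a replicate block, and arrays left out. Promoter words were counted with Python 3.11.15 in RefSeq promoters of GRCm38.p6.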

Additional observations from a re-analysis of the deposited data

Results flagged for a closer look

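The sort difference, positive minus negative, differed between the genotypes for 4 of the 8 genes, by limma's test of the difference itself, which called 0.893% of all probe sets below 0 and 0.38% above. For Tal1 the mutant sort difference less the wild-type one was -4.50. For Lyl1 it was -3.25 and for Lmo2 -2.11. For Gata1, which lay near the lower quartile of all values in the other 3 groups, it was -1.75. The Lmo2 and Gata1 calls were lost under 2 and 4 of 21 other settings.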

How the results depend on the processing

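Called differences of the complex kept their direction under all alternatives tried, 22 settings at most, and kept the call in 164 of 172 comparisons for the wild-type sort, 130 of 145 for mutant against wild-type positive cells and 78 of 84 for the interaction. Counts over all probe sets moved more. Leaving out 1 array gave 1272 to 2013 for the wild-type sort (2018 on all arrays), 1304 to 2095 for positive cells (1989), 699 to 1191 for the mutant sort (1181), 0 to 1 for negative cells (0) and 385 to 626 for the interaction (573). With only the 2 groups compared, positive cells gave 960 and the mutant sort 565. Without both wild-type arrays numbered 1, the wild-type sort gave 962 and positive cells 1303. A replicate block gave 3001 for the wild-type sort, 1848 for the mutant sort and 878 for the interaction when fixed, and 3252, 1993 and 1060 when random. In wild types the numbers were not taken as a pairing (r = 0.198, 0.07 and 0.167), although every array correlated best with its own number, 6 of 6 in each genotype. Both wild-type arrays numbered 1 also shared a high Eif2s3y level, 10.8 in positive and 11.2 in negative cells, so a pairing in wild types remains possible. The cause of these shifts was not tested.

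Of the complex's 14 probe sets, leaving out 1 array gave 7 to 8 calls for the wild-type sort, 5 to 7 for positive cells, 0 to 2 for the mutant sort and 2 to 4 for the interaction. The mutant sort gave 1 with the brightest or mean probe set per gene, 2 with only its groups, 1 with a fixed and 2 with a random replicate block. Differences near 0 changed sign. Leaving out 1 array took Ldb1 in positive cells to between -0.091 and 0.424, and, in the mutant sort, Lyl1 to between -0.006 and 0.231, Tcf3 1426297_at to between -0.028 and 0.398 and Cbfa2t3 1440963_at to between -0.109 and 0.15; the last was 0.033 after median centring and 0.029 after quantile normalization.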
